A study of Drosophila melanogaster with 18 samples.

Results

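The heads of male flies were compared with the testes of males of the same strain, gene by gene, across what both tissues are known to do. The comparison used 4 of the 18 libraries of the series, namely 2 of male heads and 2 of testes. They were fitted with the other adult parts (12 libraries in 6 groups) so that all groups shared 1 estimate of the spread. The series sequenced polyA RNA of Drosophila melanogaster, the fruit fly, to describe microexons, and the counts used here cover all genes. Male heads came from w1118 adults of 24 h, separated from bodies in liquid nitrogen. Testes were dissected on cold PBS from fresh w1118 males of the same age and stock. Both groups share the white mutation of the strain and carry no other allele or treatment in the labels. The labels name 2 samples per tissue and not which flies they came from. The p-values therefore measure the spread between samples of the same group over the 12 libraries, which may be technical.

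The fly head holds the brain, the compound eyes, head muscles, fat body, blood cells and cuticle, and most of its neurons and photoreceptors work with proteins that other tissues lack. The testis is filled with germ cells on the way to sperm. Stem cells and spermatogonia divide, spermatocytes switch on a large set of testis genes under the testis meiotic arrest complexes, and spermatids then pack their chromatin with protamines, build a long axoneme and wind their mitochondria into derivatives that run along the tail. Many testis proteins are second copies of housekeeping proteins, encoded by genes used mainly in the male germ line.

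The male head libraries held 37198249 and 60291385 counts, and the testis libraries held 41107294 and 49265037. At least 10 counts in both libraries were found for 9753 genes in male heads and for 11449 genes in testes. Of these, 619 reached that level in heads alone and 2315 in testes alone. A gene was called when its Benjamini-Hochberg adjusted p in edgeR's quasi-likelihood test was under 0.05 over all genes tested and its log2 fold change (male heads over testes) was at least 1 either way. Of 12597 genes tested, 4663 were called higher in male heads (37.0%) and 4000 lower (31.8%), 68.8% in all, and 3934 were not called. Counts for the gene lists and classes below are read against these shares. The filter on low counts keeps genes that are high in 1 group alone. A gene kept through testes alone can only be called lower in male heads, and one kept through male heads alone only higher. Differences of 5 or more on the log2 scale were found for 913 genes called higher and for 2362 called lower. In bulk samples, fewer cells of a type and less RNA per cell cannot be told apart. The split of the calls depends on the scaling. Scaled by the size factors of DESeq2 instead of TMM, 3505 genes were called higher and 4873 lower (41.8% of calls higher, against 53.8%), and the log2 fold changes of all genes shifted by a median of -0.67. The median of all genes was 0.28 with TMM, so small differences are read against that value.

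**Figure D1:**
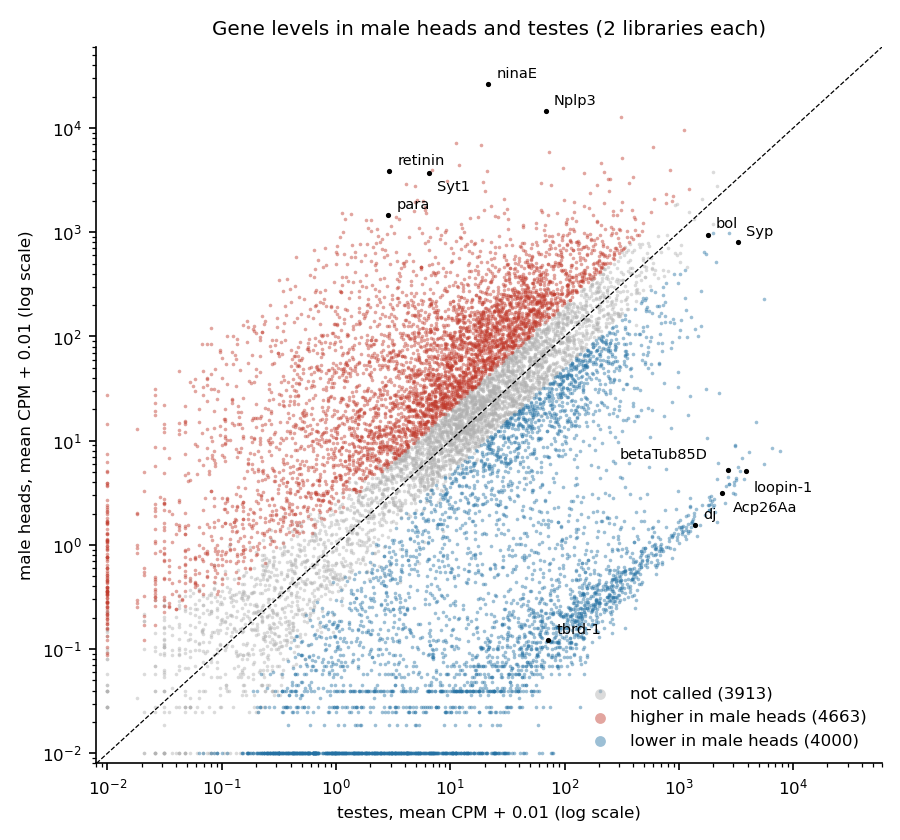
Mean level of each tested gene in male heads (vertical axis) against testes (horizontal axis), in CPM (counts scaled to the same library size) plus 0.01 on log scales, 2 libraries per group. The 4663 genes called higher (red) lie above the dashed line of equal levels, the 4000 called lower (blue) lie below it, and 3913 genes not called are grey. The 21 tested genes with no count in the 4 libraries are not drawn. A band of blue points runs parallel to the line at the lower right, from tbrd-1 to loopin-1.

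The labels were first set against genes that define each tissue. Levels are given as CPM of the TMM-scaled library size, replicate 1 before replicate 2. Replicate numbers follow the names in the count table and are uncertain, since the larger library of male heads and of testes is replicate 2 there and replicate 1 in the study's mapping summary. The rhodopsin of the outer photoreceptors, ninaE (chr3R:19886255-19888206, dm6), was at 31000 and 21544 CPM in male heads, against 30.4 and 12.7 CPM in testes. The vesicle proteins Syt1 and nSyb, the active zone scaffold brp and the glial transcription factor repo were also called higher in heads. All 4 had at least 55.6 CPM in each head library and at most 33.6 CPM in each testis library. Orco, the co-receptor of odorant receptors, was at 4.16 and 3.27 CPM in male heads, against 0.689 and 0.517 CPM in testes, a call lost with DESeq2's size factors and without male head replicate 1 or either testis replicate. The pan-neuronal gene elav had no count in any of the 4 libraries, and 98.6% of its span lies within other annotated genes. The white gene w, which would have checked the strain, lies wholly within other genes and had no count either. Genes wholly within others (3487 of 17825 in the table) were all at 0 in these libraries, and no level could be given for them.

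All 8 testis check genes were lower in male heads. The sperm tail gene dj (chr3R:7059315-7060524, dm6) was at 2.64 and 0.439 CPM in male heads, against 1731 and 1012 CPM in testes. The meiotic arrest gene aly was at 0.0297 and 0 CPM in heads, against 21.0 and 24.3 CPM in testes. The other 6 (vas, bam, twe, can, betaTub85D and Mst87F) had log2 fold changes between -2.99 and -9.32. The testis libraries also held transcripts of the male accessory gland and ejaculatory duct. Of 20 tested markers of these organs, 19 were lower in male heads. The 26 listed genes summed to 1609 and 1729 CPM in male heads, nearly all of it EbpIII, and to 29158 and 19662 CPM in testes. None of the 20 was at 0 in a testis library. The gland peptide gene Acp26Aa, picked with its values known, was at 4.93 and 1.30 CPM in male heads, against 2659 and 2123 CPM in testes. How much these organs add to the genes called lower was not tested.

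Reads of strong testis genes were also found in heads of both sexes. Of 1003 genes called lower with at least 100 CPM in both testis libraries, the level in male head replicate 1 was a median of 0.431% of the testis mean (quartiles 0.224% and 17.2%) and in replicate 2 a median of 0.212% (quartiles 0.0496% and 17.4%). Among them, 522 had a log2 fold change of -8 or less, a limit that itself keeps their share in male heads small. In male head replicate 1 their level was a median of 0.226% of the testis mean (quartiles 0.179% and 0.292%), and in replicate 2 a median of 0.0510% (quartiles 0.0336% and 0.0842%). Replicate 1 exceeded replicate 2 for 485 of the 497 genes that had a count in replicate 2. The heads of females, which have no testes, held these genes at a median of 0.265% and 0.0583% of the testis mean in replicates 1 and 2, and the ovaries held them at 1.38% and 0.193%. Thus loopin-1 was at 8.70 and 1.46 CPM in male heads and at 9.12 and 1.62 CPM in female heads, against 4739 and 2955 CPM in testes. The head values of strong testis genes given below stand beside these shares. The source of these reads was not tested.

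The largest differences were read from protein-coding genes with at least 100 CPM in both libraries of the higher group, 1591 called higher and 984 called lower. The 8 with the highest log2 fold changes were the high-affinity choline transporter gene ChT (10.64), CG14989 (10.44), the acetylcholine receptor subunit gene nAChRalpha7 (10.41), retinin, which encodes a protein of the corneal lens (10.37), ninaE (10.25), CG12239 (10.15), the ultraviolet opsin gene Rh3 (10.14) and inaD, the scaffold of the phototransduction complex (10.13). retinin was at 3443 and 4298 CPM in male heads, against 3.38 and 2.47 CPM in testes. The 8 lowest were Met75Ca (-12.98), CG12609 (-11.60), CG14740 (-11.36), CG32061 (-11.31), CG14011 (-11.19), CG15458 (-11.14), ms(2)35Ci (-11.11) and CNT1 (-11.11). Whether transcripts of any of these 8 came from the accessory gland or ejaculatory duct was not tested. Met75Ca had 2 counts in 1 head library and none in the other, against 142 and 268 CPM in testes. No called gene in the whole table had head and testis libraries that overlapped, while 89.7% of all tested genes did not overlap.

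**Figure D2:**
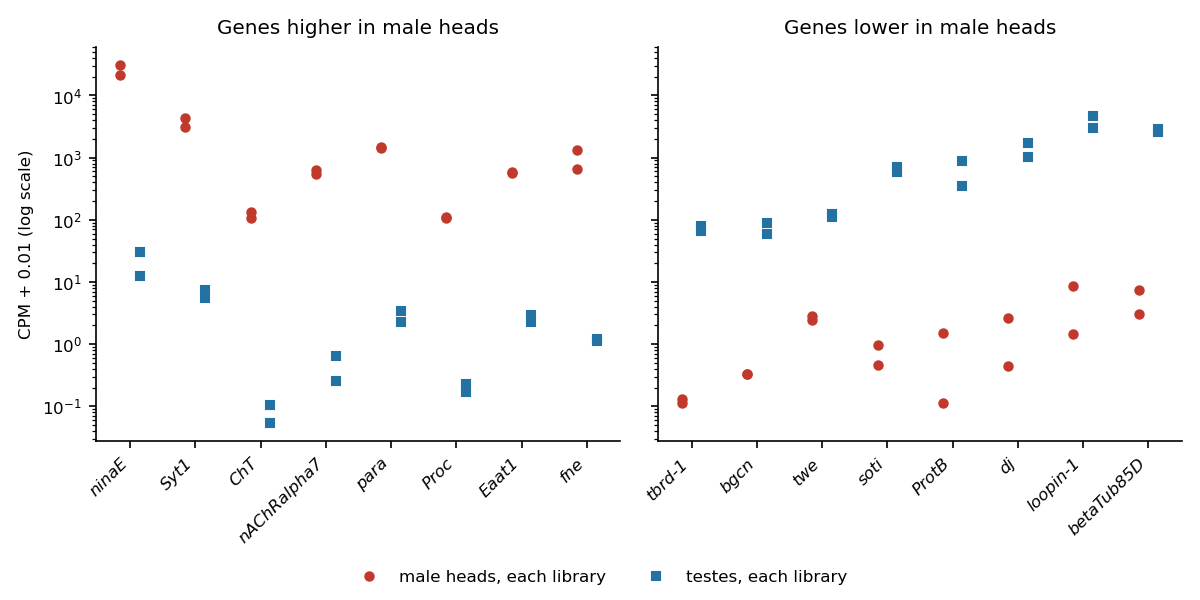
Level of 16 named genes in each library, as CPM plus 0.01 on a log scale, for male heads (red circles) and testes (blue squares). In the left panel both head libraries lie above both testis libraries for all 8 genes. In the right panel, where the order is reversed, the 2 head libraries lie further apart for ProtB, dj and loopin-1, with replicate 1 the higher one.

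Genes of light detection had the highest median of the head lists. All 31 tested phototransduction genes were higher in male heads, with a median log2 fold change of 7.53, and 4 more lay wholly within other genes. ninaE differed by 10.25 ± 1.22 (SE; adjusted p = 9.20e-05, edgeR). Rh3 was at 1397 and 1267 CPM in male heads, against 1.83 and 0.549 CPM in testes (10.14 ± 0.95, adjusted p = 2.45e-05). The scaffold gene inaD was at 1702 and 1293 CPM in male heads, against 1.72 and 0.952 CPM in testes. The eye-specific protein kinase C gene inaC was at 848 and 581 CPM in heads, against 1.05 and 0.517 CPM in testes. Both head libraries stood above both testis libraries for these 4 genes, as for every gene called higher. The smallest difference in the list was that of Calx, the sodium-calcium exchanger gene, at a mean of 462 CPM in male heads, against 214 CPM in testes (1.11), and was picked with its values known. Its call was lost with every other scaling and without male head replicate 1 or testis replicate 1. With DESeq2's size factors 29 of the 31 genes were still called.

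Synapse genes were higher in male heads in nearly every case. Of 26 tested genes of vesicle release, 25 were called higher and none lower (median 5.55). The calcium sensor gene Syt1 was at 4364 and 3104 CPM in male heads, against 7.53 and 5.42 CPM in testes (9.17 ± 0.67, adjusted p = 7.43e-06, edgeR). Syn, which encodes the vesicle-binding synapsin, was at 1556 and 1260 CPM in heads, against 3.72 and 2.94 CPM in testes. The fusion clamp gene cpx and the RIM-binding protein gene Rbp differed by 8.54 and 8.17. The dynamin gene shi, which also serves membrane traffic in other cells, was at 1216 and 1148 CPM in male heads, against 222 and 192 CPM in testes (2.51), and was chosen after its values were seen. Liprin-alpha, a scaffold gene of the active zone, was the 1 member not called, at 126 and 109 CPM in male heads, against 66.7 and 74.8 CPM in testes (0.73, adjusted p = 0.0455).

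Of 20 tested genes for making and moving transmitters, 19 were higher in male heads (median 6.33). ChT was at 107 and 133 CPM in male heads, against 0.0430 and 0.0968 CPM in testes, where it had 2 and 6 counts (10.64 ± 0.62, adjusted p = 2.95e-06, edgeR). The GABA-producing enzyme gene Gad1 was at 1420 and 1219 CPM in heads, against 2.20 and 1.44 CPM in testes. The vesicular transporter genes VGlut and VGAT differed by 9.21 and 8.82. DAT, the dopamine transporter gene, was not called, and its libraries overlapped, at 31.2 and 34.6 CPM in male heads, against 37.7 and 31.3 CPM in testes (-0.07, adjusted p = 0.914).

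All 26 tested ion channel genes were higher in male heads (median 5.51). The voltage-gated sodium channel gene para was at 1461 and 1445 CPM in male heads, against 3.44 and 2.24 CPM in testes (9.0 ± 0.44, adjusted p = 1.91e-06, edgeR). The potassium channel genes Sh and eag differed by 8.45 and 7.44, and stj, which encodes a calcium channel subunit, by 7.38. Of 45 tested transmitter receptor genes, 42 were higher and 1 lower (median 4.91). nAChRalpha7 was at 626 and 538 CPM in heads, against 0.624 and 0.242 CPM in testes. The acetylcholine receptor subunit gene nAChRalpha5 and the dopamine receptor genes Dop1R2 and DopEcR differed by 9.25, 9.04 and 9.0. The member called lower was GluRIIC, which encodes a subunit of the glutamate receptor of muscle, at 1.99 and 2.20 CPM in male heads, against 11.0 and 15.3 CPM in testes (-2.65 ± 0.57, adjusted p = 0.00251).

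Peptide signalling genes followed the same direction with exceptions. Of 34 tested neuropeptide and peptide hormone genes, 28 were higher in male heads and 2 lower (median 5.17), and 11 lay wholly within other genes. Capa was at 53.0 and 40.8 CPM in male heads, against 0 and 0.0646 CPM in testes (10.25 ± 0.97, adjusted p = 2.58e-05, edgeR). Proc, the gene of the muscle-active peptide proctolin, was at 111 and 105 CPM in heads, against 0.215 and 0.161 CPM in testes. Nplp1 and sNPF differed by 8.31 and 7.75. Lower in male heads were Ilp8, a relaxin-like hormone gene, at 0.416 and 0.510 CPM against 3.08 and 3.41 CPM in testes (-2.79), and Ptth, the gene of the hormone that drives ecdysone production in larvae, at 0.831 and 0.949 CPM against 4.35 and 3.86 CPM in testes (-2.20). The call of Ptth was lost when any 1 of the 4 libraries was left out. CCAP, a gene of a cardioactive peptide, was not called, at 2.67 and 1.65 CPM in heads, against 7.25 and 4.25 CPM in testes (adjusted p = 0.0584), and was called lower with DESeq2's size factors and without testis replicate 2.

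The clock genes did not all point one way. Of 18 tested, 13 were higher in male heads and 1 lower (median 2.48). The counts were 11 higher and 2 lower with DESeq2's size factors (median 1.82). Pdf, the peptide of the clock neurons, was at 55.0 and 43.1 CPM in male heads, against 0.882 and 0.517 CPM in testes (6.14 ± 0.76, adjusted p = 1.20e-04, edgeR). Its receptor gene Pdfr, the repressor gene per and the activator gene Pdp1 differed by 4.77, 4.42 and 4.03. Clk, which encodes the transcription factor that drives per, was lower in male heads, at 44.9 and 56.8 CPM against 142 and 165 CPM in testes (-1.60 ± 0.26, adjusted p = 5.22e-04). Libraries of Clk and of per did not overlap between the tissues, as was so for every called gene.

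**Figure D3:**
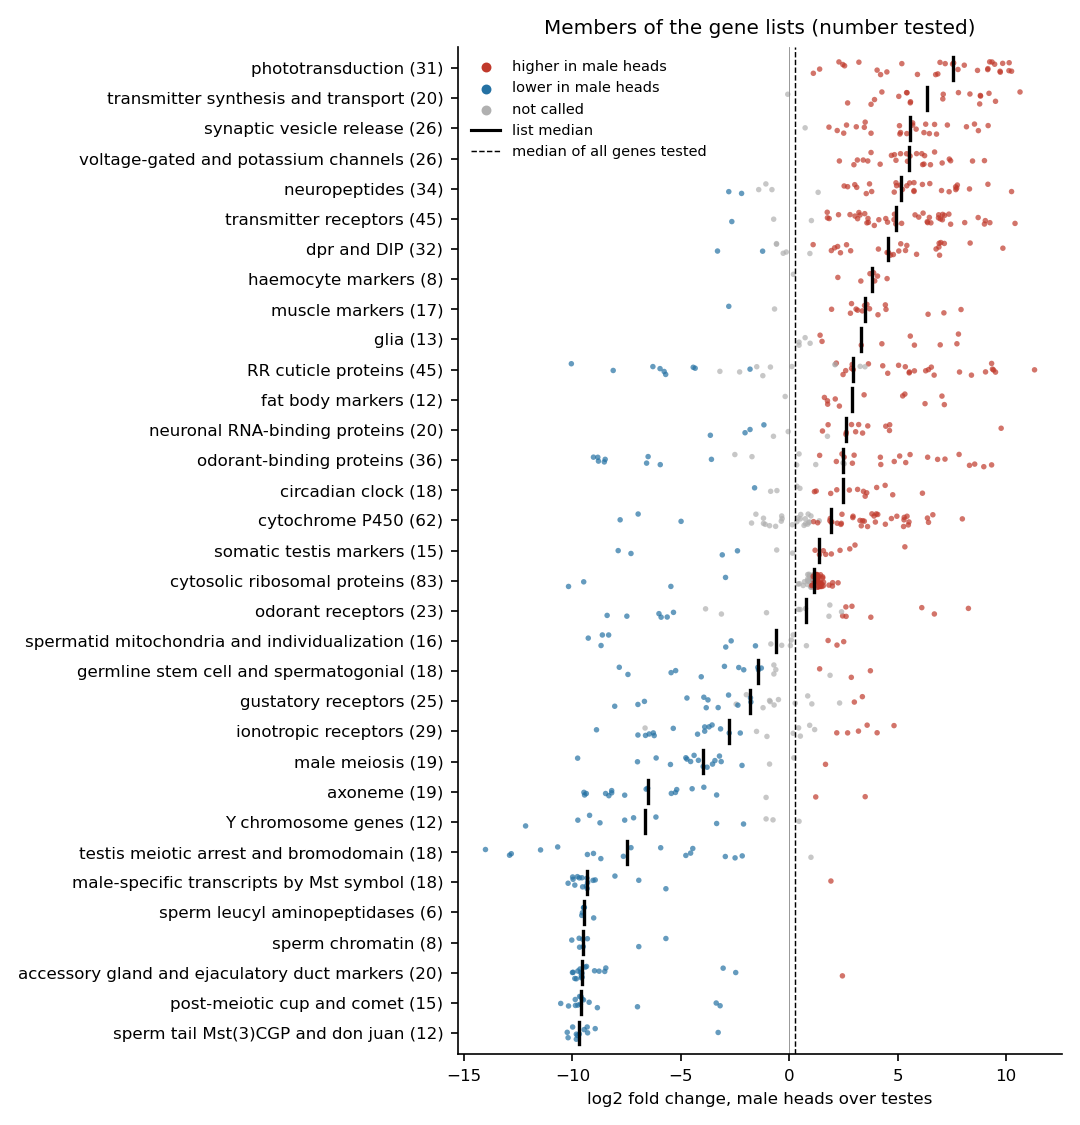
Log2 fold change (male heads over testes, horizontal axis) of every tested member of each gene list, with the number tested in brackets. Red points were called higher, blue lower and grey not called. Thick bars are list medians, and the dashed line is the median of all genes (0.28). Phototransduction genes stand highest (median 7.53), and 6 lists of sperm and male-specific genes stand lowest, at medians between -9.35 and -9.72.

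Among the glial genes, 9 of 13 tested were higher in male heads and none lower (median 3.32). Only 7 were called higher with DESeq2's size factors (median 2.65). The glutamate transporter gene Eaat1 was at 568 and 596 CPM in male heads, against 2.93 and 2.29 CPM in testes (7.80 ± 0.59, adjusted p = 8.55e-06, edgeR). repo was at 55.6 and 63.4 CPM in heads, against 0.258 and 0.678 CPM in testes. wrapper and bdl, which encode cell-surface proteins, differed by 7.73 and 5.77. The sodium pump subunit gene nrv2 was at 733 and 750 CPM in male heads, against 552 and 537 CPM in testes, and was not called (0.45, adjusted p = 0.239). The dpr and DIP genes encode immunoglobulin proteins by which neurons recognise their partners. Of these, 25 of 32 were higher in male heads and 2 lower (median 4.54). dpr20 was at 75 and 72.9 CPM in heads, against 0.172 and 0 CPM in testes. dpr17 went the other way, at 96.6 and 78.9 CPM in male heads, against 954 and 788 CPM in testes (-3.31 ± 0.84, adjusted p = 0.00581), and DIP-lambda differed by -1.23.

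Neural RNA-binding proteins were divided. Of 20 tested genes, 13 were higher in male heads and 4 lower (median 2.62). fne, an ELAV-family gene, was at 667 and 1346 CPM in male heads, against 1.12 and 1.18 CPM in testes (9.77 ± 0.83, adjusted p = 1.47e-05, edgeR). mub, bru3 and Srrm234, a splicing factor gene, differed by 4.63, 4.62 and 4.45. bru1, the translational repressor known from the female germ line, was lower in male heads, at 120 and 132 CPM against 1687 and 1449 CPM in testes (-3.64 ± 0.29, adjusted p = 1.09e-05). Syp was at 809 and 798 CPM in heads, against 3179 and 3416 CPM in testes (-2.04). bru2 was at 83.0 and 68.9 CPM in male heads, against 70.7 and 87.0 CPM in testes, with overlapping libraries.

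Markers of other head tissues were higher in male heads too. Of 17 tested muscle genes, 15 were higher and 1 lower (median 3.47). The myosin light chain gene Mlc2 was at 5619 and 3624 CPM in male heads, against 200 and 220 CPM in testes (4.46 ± 0.53, adjusted p = 8.81e-05, edgeR). Act79B, an actin gene of tubular muscles, was at 852 and 82.3 CPM in heads, against 7.19 and 3.91 CPM in testes, so the head libraries differed from each other by far more than the testis libraries. TpnC41C was higher in replicate 1 of both tissues, at 207 and 58.4 CPM in male heads, against 1.46 and 0.452 CPM in testes. Its relative differences between replicates were of similar size in heads and testes. The flight muscle gene fln was at 0.594 and 0.597 CPM in heads and had no count in testes, at least 9.23-fold higher against a floor of 3 counts per library, which covers counting error only. TpnC47D, another troponin C gene, was lower in male heads, at 4.66 and 3.51 CPM against 29.3 and 27.2 CPM in testes (-2.79).

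Of 12 fat body markers tested, 11 were higher in male heads (median 2.88), and of 8 haemocyte markers 7 (median 3.80). Fat body markers called higher numbered 9 with DESeq2's size factors (median 2.21). The storage protein gene Lsp2 was at 133 and 131 CPM in male heads, against 1.23 and 0.791 CPM in testes (7.04 ± 0.72, adjusted p = 3.92e-05, edgeR). fit and to, genes of secreted proteins of the head fat body, differed by 7.15 and 6.26, and Lsp1beta by 5.33. The phagocytosis receptor gene NimC1 was at 7.6 and 17.0 CPM in heads, against 0.301 and 0.759 CPM in testes (4.51), and Ppn, a matrix protein gene, differed by 4.07. The lipocalin gene NLaz was not called, at 34.2 and 47.2 CPM in male heads, against 39.9 and 53.2 CPM in testes.

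Cuticle and detoxification genes were mixed. Of 45 tested RR cuticle protein genes, 26 were higher in male heads and 9 lower (median 2.95). Cpr49Af was at 7.12 and 5.38 CPM in male heads and had no count in testes, at least 96.8-fold higher against the same floor. Cpr49Ag was at 130 and 122 CPM in heads, against 0.151 and 0.210 CPM in testes (9.42). Cpr56F was lower in male heads, at 0.178 and 0.123 CPM against 37.2 and 45.8 CPM in testes (-8.12 ± 0.94, adjusted p = 7.94e-05, edgeR). Of 62 tested cytochrome P450 genes, 35 were higher and 3 lower (median 1.91). Cyp4d21 was at 181 and 167 CPM in male heads, against 0.732 and 0.646 CPM in testes (7.98). Cyp312a1 was at 1.37 and 1.02 CPM in heads, against 276 and 255 CPM in testes (-7.80).

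Among the odorant-binding protein genes, 20 of 36 tested were higher in male heads and 9 lower (median 2.50). Obp19d was at 669 and 610 CPM in male heads, against 1.25 and 0.742 CPM in testes (9.33 ± 0.66, adjusted p = 6.52e-06, edgeR). Obp57c differed by 8.97. Obp99a was lower in male heads, at 0.594 and 0.0703 CPM against 163 and 118 CPM in testes (-8.83). Obp44a was at 1560 and 1554 CPM in heads, against 1287 and 1173 CPM in testes (0.34, adjusted p = 0.530).

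Most chemoreceptor genes had low levels in both tissues. In each of the 4 libraries the 60 listed odorant receptor genes summed to between 13.4 and 23.3 CPM, and the 60 listed gustatory receptor genes to between 9.30 and 34.4 CPM. The 66 ionotropic receptor genes summed to 109 and 88.0 CPM in male heads, most of it Ir40a, against 57.7 and 44.7 CPM in testes. Of 23 tested odorant receptor genes, 8 were higher in male heads and 6 lower, and of 25 gustatory receptor genes 2 were higher and 12 lower. The odorant receptor shares, 34.8% higher and 26.1% lower, were near those of all genes (37.0% and 31.8%). Of 29 ionotropic receptor genes, 6 were higher and 15 lower. Or63a was at 6.50 and 5.01 CPM in male heads, against 0.0430 and 0.113 CPM in testes (6.11). Gr59a was at 0.0297 and 0.0351 CPM in heads, against 5.38 and 3.55 CPM in testes (-6.98). Ir40a was at 74.8 and 55.7 CPM in male heads, against 3.79 and 4.07 CPM in testes (4.05). These counts moved when 1 library was left out. Gustatory and ionotropic receptor genes called lower fell in number whichever of the 4 libraries was left out. Each such fit keeps only 1 library of a group and tests a different number of genes. The fall therefore cannot show whether 1 library carried the calls. Odorant receptor genes called higher numbered 4 without male head replicate 1, without testis replicate 1 or without testis replicate 2. Gustatory receptor genes called lower numbered 7 without male head replicate 2 and 6 without testis replicate 1. Ionotropic receptor genes called lower numbered 5 without male head replicate 2 and 8 without either testis replicate. In the 3 families 13, 11 and 10 members lay wholly within other genes and 24, 24 and 27 were too low to test.

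Genes of early germ cells went both ways. Of 18 tested germline genes, 11 were lower in male heads and 3 higher (median -1.43), and with DESeq2's size factors 14 were lower and 2 higher. bgcn, the partner of the differentiation factor bam, was at 0.327 and 0.316 CPM in male heads, against 60.2 and 87.9 CPM in testes (-7.84 ± 0.48, adjusted p = 3.70e-06, edgeR). bam was at 0.119 and 0.0351 CPM in heads, against 3.14 and 3.13 CPM in testes (-5.45). Rbp4, an RNA-binding protein gene of spermatocytes, and krimp, a Tudor protein gene of the piRNA pathway, differed by -7.44 and -5.24. The transcription factor gene ovo was higher in male heads, at 27.8 and 29.6 CPM against 1.81 and 2.47 CPM in testes (3.74 ± 0.31, adjusted p = 1.34e-05). Counts over a gene's whole span cannot tell its transcripts apart. gcl, a gene of germ cell formation in the embryo, was at 25 and 29.8 CPM in heads, against 2.67 and 4.86 CPM in testes (2.86). The piRNA pathway gene AGO3 did not pass the fold limit, at 20.4 and 22.1 CPM in male heads, against 38.8 and 30.9 CPM in testes (-0.71), but was called lower with DESeq2's size factors.

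Genes that switch on the spermatocyte programme were mostly lower in male heads. Of 18 tested genes of the meiotic arrest complexes and testis bromodomain proteins, 17 were lower in male heads and none higher (median -7.47). Among them, 4 had no count in either head library. Against a floor of 3 counts per library they were lower in heads by at least 456-fold for the bromodomain gene tbrd-2, 212-fold for tplus3b, 200-fold for nht, the testis form of a TFIID subunit, and 78.6-fold for comr. tbrd-2 was at 28.9 and 52.2 CPM in testes, and nht at 19.2 and 16.3 CPM. With at least 10 counts required in every library, only 6 genes of the list were tested, of which 5 were called lower. tbrd-1 was at 0.119 and 0.105 CPM in male heads, against 65.1 and 78.5 CPM in testes (-9.31 ± 0.48, adjusted p = 2.08e-06, edgeR), and was chosen after its values were seen. The member not called was simj, which encodes a subunit of a chromatin remodelling complex, at 127 and 136 CPM in heads, against 60.3 and 71.6 CPM in testes (1.0), and was called higher without male head replicate 1.

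Genes of the male meiotic divisions were lower in male heads for 16 of 19 tested, and 1 was higher (median -3.97). twe, the Cdc25 phosphatase gene of meiosis, was at 2.85 and 2.44 CPM in male heads, against 126 and 110 CPM in testes (-5.48 ± 0.46, adjusted p = 1.37e-05, edgeR). polo, a mitotic and meiotic kinase gene, was at 4.07 and 1.51 CPM in heads, against 192 and 198 CPM in testes (-6.14). ord, which keeps sister chromatids together, and mud, a spindle protein gene, differed by -9.76 and -7.00. The boule gene bol, which is needed for meiotic entry, was at 881 and 1024 CPM in male heads, against 1767 and 1813 CPM in testes, and did not pass the fold limit (-0.91, adjusted p = 0.0227), but was called lower with DESeq2's size factors and without male head replicate 2. vib, a phosphatidylinositol transfer protein gene, was higher in heads, at 390 and 308 CPM against 130 and 88.4 CPM in testes (1.67), a call lost with DESeq2's size factors. With them 17 genes of the list were lower and none higher.

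Genes of spermatids and sperm were lower in male heads without exception in 4 lists. This was so for 15 of 15 tested cup and comet genes, which are transcribed after meiosis (median -9.60), 8 of 8 sperm chromatin genes (median -9.51), 12 of 12 sperm tail genes of the Mst(3)CGP and don juan groups (median -9.72) and 6 of 6 sperm leucyl aminopeptidase genes (median -9.48). All stayed lower when any 1 library was left out, while the medians moved. Without male head replicate 1 they were -10.67, -10.99, -11.45 and -10.89 in the same order of lists, and without male head replicate 2 they were -8.82, -8.54, -9.04 and -8.84. Without testis replicate 1 they were -9.35, -8.82, -8.90 and -9.23. With at least 10 counts required in every library, only 7, 2, 9 and 5 genes of these lists were tested, all called lower. The others had passed the filter with fewer than 10 counts in some library, so their direction was largely set by the filter. soti, which encodes an inhibitor of a ubiquitin ligase in spermatids, was at 0.950 and 0.457 CPM in male heads, against 698 and 584 CPM in testes (-9.86 ± 1.52, adjusted p = 3.95e-04, edgeR). The protamine gene ProtB was at 1.48 and 0.105 CPM in heads, against 894 and 348 CPM in testes (-9.67 ± 2.20, adjusted p = 0.00333). The transition protein gene Tpl94D was at 0.0891 and 0.0351 CPM in heads, against 79.3 and 44.7 CPM in testes. soti and ProtB are among the 522 genes whose share in heads is given above. Smaller differences were seen for m-cup and f-cup, with 54.2 and 55.7 CPM and 59.1 and 50.5 CPM in male heads, against 600 and 535 CPM and 576 and 426 CPM in testes, and both were picked with their values known.

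The sperm tail gene djl was at 1.10 and 0.369 CPM in male heads, against 1148 and 584 CPM in testes (-10.24 ± 2.05, adjusted p = 0.00166, edgeR). The 3 neighbours Mst84Db, Mst84Dc and Mst84Dd had log2 fold changes of -9.30, -9.99 and -10.20. The sperm aminopeptidase genes summed to 35.4 and 7.22 CPM in male heads, against 16696 and 11439 CPM in testes, with loopin-1 at -9.57 ± 1.88. Members of these families are close copies of each other, and the handling of reads that match several copies is not given in the sources used here, so values of single members are uncertain. Among 18 tested genes with an Mst symbol (male-specific transcript), 17 were lower in male heads and Mst85C was higher, at 12.9 and 16.3 CPM against 3.92 and 3.81 CPM in testes (1.92).

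Axoneme genes were lower in male heads for 16 of 19 tested, and 2 were higher (median -6.53). Tektin-A, a gene of microtubule doublets, was at 0.891 and 0.281 CPM in male heads, against 464 and 340 CPM in testes (-9.47 ± 1.45, adjusted p = 3.84e-04, edgeR). The dynein heavy chain gene Dhc16F was at 0.267 and 0.0351 CPM in heads, against 71.6 and 118 CPM in testes (-9.44). gudu and dtr differed by -9.36 and -8.47. Another dynein heavy chain gene, Dhc93AB, was higher in male heads, at 5.64 and 1.19 CPM against 0.323 and 0.274 CPM in testes (3.50 ± 1.07, adjusted p = 0.0149), and nmdyn-D6 differed by 1.22. The list had no gene called higher without male head replicate 1 or without testis replicate 1, and 1 with DESeq2's size factors.

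Genes of the spermatid mitochondrion and of sperm individualization went both ways. Of 16 tested, 7 were lower in male heads and 3 higher (median -0.60). The testis cytochrome c gene Cyt-c-d was at 1.31 and 0.510 CPM in male heads, against 381 and 192 CPM in testes (-8.33 ± 1.66, adjusted p = 0.00160, edgeR). Porin2 and knon, which encode a mitochondrial channel and an ATP synthase-like protein of the mitochondrial derivative, differed by -8.68 and -8.62. The effector caspase gene Drice was higher in male heads, at 22.1 and 30.3 CPM against 4.86 and 6.52 CPM in testes (2.20). Dronc, the initiator caspase gene, was at 14.6 and 13 CPM in heads, against 17.9 and 17.1 CPM in testes (-0.35, adjusted p = 0.210), but was called lower with DESeq2's size factors.

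Markers of the somatic cells of the testis did not separate the tissues in 1 direction, with 9 of 15 tested higher in male heads and 4 lower (median 1.39). The split was 6 higher and 5 lower with DESeq2's size factors (median 0.73). upd1, the signal of the hub cells, was at 0.208 and 0.0351 CPM in male heads, against 24.7 and 27.6 CPM in testes (-7.89 ± 0.82, adjusted p = 4.35e-05, edgeR). Abd-B, the Hox gene of the posterior abdomen, was at 0.237 and 0.211 CPM in heads, against 24.2 and 46.5 CPM in testes (-7.30). The transcription factor gene hth was higher, at 515 and 740 CPM in male heads, against 19.7 and 11.5 CPM in testes (5.33), as was tj at 17.1 and 20.2 CPM in heads, against 1.87 and 3.50 CPM in testes (2.79).

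Testis copies of housekeeping proteins were compared with their broadly used relatives. Of 50 listed testis copies, 36 could be tested and all 36 were lower in male heads (median -8.97). The other 14 had no count in any of the 4 libraries, testes included, so no level could be given for them. Among these 14, sa, Taf12L and RpS10a lie wholly within other genes. Of 45 broad copies, 44 were tested, and 30 were higher in male heads, 2 lower and 12 not called (median 1.5). The broad cytochrome c gene Cyt-c-p averaged 1329 ± 76.6 CPM in male heads and 105 ± 2.66 CPM in testes (SD, n = 2 each; 3.66 ± 0.40, adjusted p = 5.86e-05, edgeR), the reverse of Cyt-c-d next to it on chromosome arm 2L. The tubulin genes also went opposite ways, with betaTub56D at 605 and 697 CPM in heads, against 169 and 239 CPM in testes (1.67), and betaTub85D at 7.51 and 3.04 CPM in heads, against 2854 and 2541 CPM in testes (-9.0). Scaled by DESeq2's size factors, 19 and not 30 broad copies were called higher, while all 36 testis copies stayed lower. With at least 10 counts required in every library, only 10 testis copies were tested, all called lower. With each of the 4 libraries left out in turn, the median of the testis copies lay between -8.53 and -10.1.

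Counts of the broad genes are given by complex, with no test between complexes. Among respiratory chain and cytochrome c pairs, 12 of 13 broad genes were higher in male heads and all 7 tested testis copies lower. The complex I gene ND-20 averaged 171 ± 5.46 CPM in male heads and 19.3 ± 1.02 CPM in testes (3.15). Its copy ND-20L had no count in heads, against 33.9 and 18.1 CPM in testes, at least 292-fold lower in heads against a floor of 3 counts per library. For the proteasome, 7 of 9 tested broad genes were not called, 1 was higher (Rpt3, a call lost with DESeq2's size factors) and 1 lower (Prosalpha3), and all 12 tested testis copies were lower. Prosbeta4 was at 24.1 and 25.2 CPM in heads, against 28.5 and 19.8 CPM in testes (0.03), and its copy Prosbeta4R2 was at 0.386 and 0 CPM in heads, against 214 and 119 CPM in testes (-9.94 ± 2.13, adjusted p = 0.00240, edgeR). The glycolytic enzyme gene Pglym78 differed by 3.65 and its copy Pglym87 by -9.77.

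**Figure D4:**
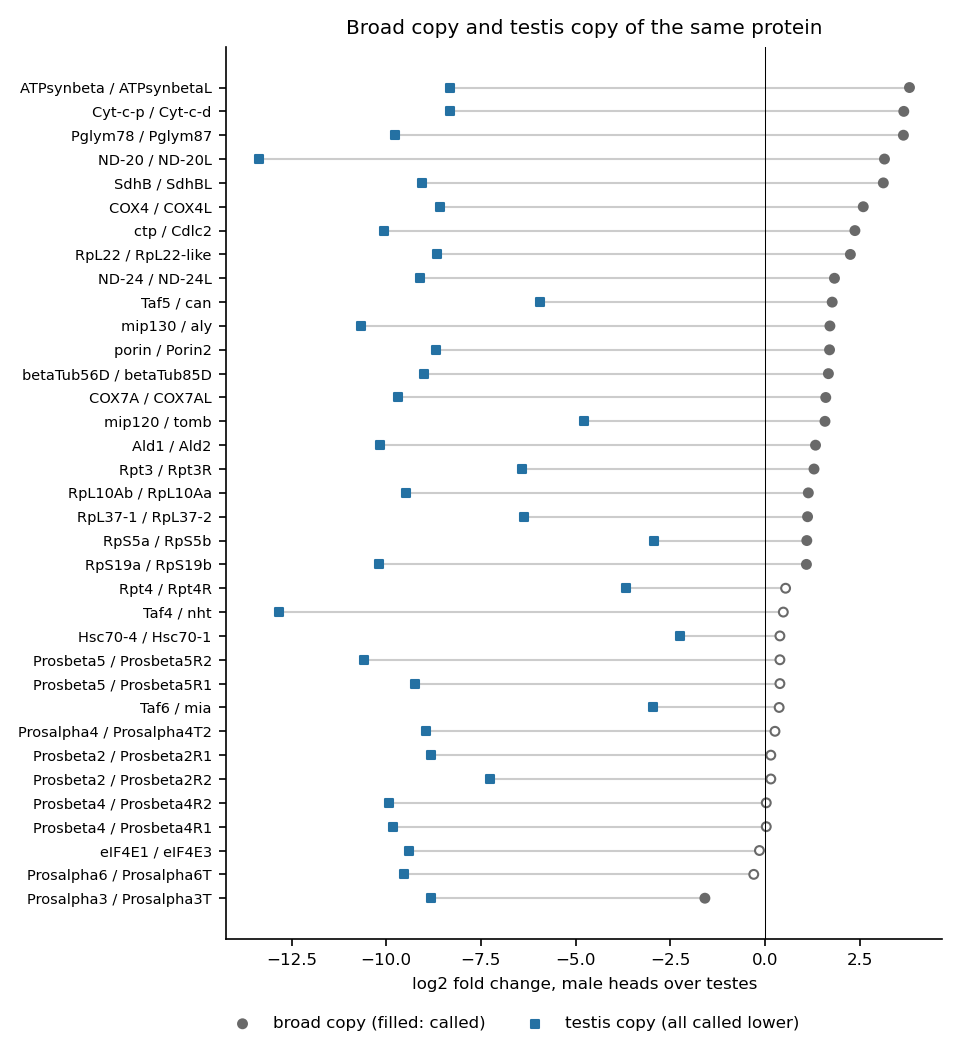
Log2 fold changes (male heads over testes, horizontal axis) of the broad copy (circles, filled where called) and the testis copy (blue squares) of the same protein, for the 35 pairs in which both were tested. All testis copies lie left of 0, and the points of ND-20L and nht, with no count in heads, are fitted values and not bounds. The broad copy was called higher in 21 pairs, lower in 1 and was not called in 13.

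Cytosolic ribosomal protein genes stood a little above the median of all genes, at a median of 1.16 over 83 tested, with 56 called higher in male heads and 4 lower. The calls depended on the scaling, since 3 were called higher with DESeq2's size factors (median 0.49) and 12 with upper-quartile scaling. They also numbered 36 without either male head replicate, 32 without testis replicate 1 and 35 without testis replicate 2. The 4 lower genes were RpL10Aa, RpS19b, RpS28a and RpS5b. RpL10Aa was at 0.327 and 0.0703 CPM in male heads, against 171 and 91.7 CPM in testes (-9.48 ± 1.99, adjusted p = 0.00213, edgeR), and RpS19b was at 0.119 and 0 CPM in heads, against 62.9 and 52.5 CPM in testes (-10.18). RpS28a and RpS5b differed by -5.46 and -2.94. Among the genes called higher, RpL22 was at 187 and 256 CPM in male heads, against 37.9 and 54.9 CPM in testes (2.25).

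The direction of the calls differed by chromosome. On the X, 47.1% of 1887 tested genes were higher in male heads and 23.5% lower (median 0.98). On the fourth chromosome 75 of 94 were higher and 6 lower (median 2.99). The 4 large autosome arms had between 32.5% and 36.6% higher and between 31.2% and 38.1% lower. With DESeq2's size factors the X had 34.9% higher and 29.3% lower, the fourth chromosome 67.0% higher and 6.38% lower, and the autosome arms between 24.2% and 27.5% higher. No test was made across chromosomes.

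**Figure D5:**
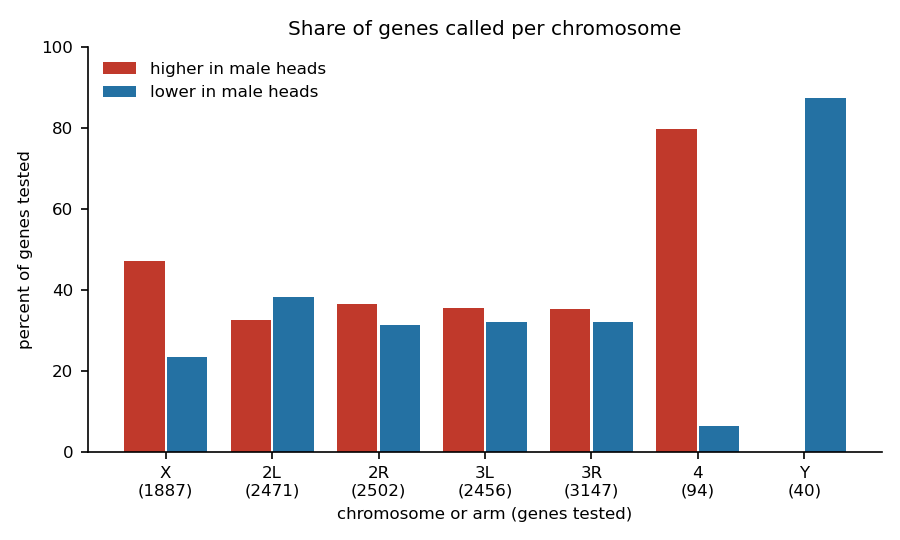
Percent of tested genes on each chromosome or arm that were called higher (red) and lower (blue) in male heads, with the number tested in brackets. The fourth chromosome had 79.8% higher, the Y none higher and 87.5% lower.

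On the Y chromosome 35 of 40 tested genes were lower in male heads and none higher (median -7.96). Of the 12 listed fertility and related genes, 9 were lower (median -6.66). The phosphatase gene Pp1-Y1 had no count in heads, against 11.7 and 10.9 CPM in testes, at least 127-fold lower in heads against the floor. ARY, Pp1-Y2 and CCY differed by -9.75, -9.21 and -8.73. The 3 members not called were picked with their values known, because the head libraries did not match each other. The dynein heavy chain gene kl-5 was at 63.4 and 6.01 CPM in male heads, against 70.8 and 75.2 CPM in testes. Ppr-Y was at 88.3 and 8.07 CPM in heads, against 46.3 and 24.3 CPM in testes, and ORY at 25.9 and 2.39 CPM in heads, against 22.9 and 24.5 CPM in testes. Replicate 1 of the female heads, which carry no Y, also held kl-5 at 41.8 CPM, Ppr-Y at 62.6 CPM and ORY at 17.1 CPM, and replicate 2 held them at 6.14, 1.79 and 0.481 CPM. The source of these reads in heads was not tested.

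Gene class also went with direction. Of 1181 tested genes annotated as ncRNA, 744 were lower in male heads (63.0%) and 184 higher (15.6%), and of 124 pseudogenes 61 were lower. Among protein-coding genes, those with a name were higher in male heads for 44.9% and lower for 21.5%, while genes known only by a CG number were higher for 31.4% and lower for 38.5%. Genes called higher had a median span of 4332 bases, against 1380 bases for genes called lower and 2227 bases for all tested. The 2 RNAs of the dosage compensation complex were among the ncRNAs called higher and were picked with their values known. roX1 (lncRNA:roX1) was at 1810 and 2298 CPM in male heads, against 79.1 and 118 CPM in testes, and roX2 (lncRNA:roX2) at 66.3 and 44.0 CPM in heads, against 4.67 and 2.18 CPM in testes.

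For the germline genes, the change between head and gonad was set beside the same change in females by the difference of the log2 fold changes, male (heads over testes) minus female (heads over ovaries), in the same fit. This difference had an adjusted p under 0.05 for 61.5% of all 12597 genes, and for 16 of the 18 germline genes tested. A positive value means that the log2 fold change of heads over the gonad was higher in males than in females. osk, the determinant of germ plasm, was at 1.66 and 1.0 CPM in male heads, against 0.667 and 0.339 CPM in testes, and at 1.13 and 0.616 CPM in female heads, against 321 and 374 CPM in ovaries (difference 10.04 ± 0.66, adjusted p = 3.42e-05, edgeR). ovo was at 29.2 and 40.7 CPM in female heads, against 619 and 697 CPM in ovaries, while in males it was higher in heads than in testes (difference 7.98). bgcn was at 0.417 and 0.231 CPM in female heads, against 2.26 and 1.49 CPM in ovaries, and its difference was -5.30 ± 0.58. Rbp4 also had a negative difference (-6.30), and the other 14 that passed had positive ones.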

How the data were processed

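Per the labels, polyA RNA of w1118 heads, bodies and gonads was sequenced on an Illumina instrument. The submitters' processing notes name cutadapt 1.15, TopHat2 2.1.1 and the dm6 build. The authors deposited counts, whole numbers of reads per gene over its whole span. The counter and its rules on strand, overlaps and reads with several matches are not given in the sources used here, so overlapping genes and close paralogs are uncertain. All 3487 genes wholly within others were at 0 in the 4 libraries. Levels of partly overlapped genes, among them ChT, inaD, Mst87F and Ppr-Y, may therefore cover only part of their span. Replicates were compared on the deposited counts, and every per-sample column was used or mapped.

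The counts of 12 adult-part libraries (37198249 to 67429362 each) were filtered with filterByExpr (minimum count 10), scaled by TMM (factors 0.847 to 1.26) and fitted with edgeR 4.0.16 quasi-likelihood in R 4.3.3 (biological coefficient of variation 0.365). SE is the log2 fold change divided by the root of F. Adjusted p-values are those of Benjamini and Hochberg over all genes, with the limits given above. Floors of 3 counts cover counting error only, while SE also includes the spread between libraries. Summaries used Python 3.11.15, pandas 2.3.3 and numpy 2.4.6. In a simulation of male heads over testes on 12597 genes (12358 tested), 74 of 200 genes changed by 2 on the log2 scale were called (37%), none in the wrong direction, with 4 unchanged genes called. Only 200 genes were changed there, while 8663 genes were called in the data. The adjustment depends on that number, so neither 37% nor the 4 unchanged calls describe the comparison itself.

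The genes compared and all gene lists were chosen with earlier results of these data known. Named genes were at most 4 members of each list with the largest changes in the direction of most calls, at most 2 called the other way, up to 4 that did not pass, the tissue check genes, w, both copies of described pairs, and the 8 extreme protein-coding genes each way with at least 100 CPM in both libraries of the higher group. Others are marked as chosen after their values were seen. Alternatives were DESeq2 1.42.0 (its size factors and its test), upper-quartile scaling, other filters, only non-overlapping genes, only the 4 libraries, no minimum fold, a replicate block and leaving out each library. Replicate numbers share no animal or batch in the labels. A planned promoter motif search was not run.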

Additional observations from a re-analysis of the deposited data

Results flagged for a closer look

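The change between head and gonad differed between the sexes, by the interaction term of the edgeR fit (adjusted p under 0.05), for 16 of 18 germline genes. The difference of log2 fold changes, male (heads over testes) minus female (heads over ovaries), was 10.56 for pgc, 10.04 for osk, 8.02 for otu, 7.98 for ovo, 6.8 for piwi, 5.93 for gcl and 5.44 for vas. It was 4.12 for aub, 3.98 for tej, 3.58 for krimp, 3.46 for bam, 2.21 for qin, 2.19 for AGO3 and 1.30 for mael. It was negative for bgcn (-5.30) and Rbp4 (-6.30), whose levels were 60.2 and 87.9 CPM and 44.2 and 43.3 CPM in testes, against 2.26 and 1.49 CPM and 1.16 and 0.596 CPM in ovaries. For tut (1.07, adjusted p = 0.103) and stwl (0.65, adjusted p = 0.474) the difference did not pass. Since 61.5% of all genes passed the same test, 16 of 18 is read against that share.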

How the results depend on the processing

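Requiring 10 counts in every library left 8071 genes, of which 2399 were called higher in male heads and 2460 lower, and 4668 passed the sex difference. It gave 40.0% of glial, 60.0% of fat body, 0.0% of odorant receptor, 3.75% of ribosomal and 34.1% of broad copy genes called higher, and 33.3% of ionotropic receptor genes called lower. Among genes overlapping no other, 2887 were called higher, and 37.5% of somatic testis markers. Without a filter, 17.8% of odorant receptor genes were called higher, and 25.5% of gustatory and 26.4% of ionotropic receptor genes lower. The DESeq2 Wald test called 17.4% of odorant receptor, 3.61% of ribosomal and 43.2% of broad copy genes higher. Its size factors alone gave 3.61% and 43.2% for the last pair of lists. Ribosomal genes called higher were 14.46% with upper-quartile scaling and 9.64% with the 4 libraries alone. Leaving out each library in turn gave 14.3% to 28.6% of odorant receptor and 38.6% to 43.4% of ribosomal genes called higher, and 22.2% to 29.6% of gustatory and 16.7% to 37.5% of ionotropic receptor genes called lower. The cause of these moves was not tested. The sex difference of tut was -0.18 with 10 counts in every library, and that of stwl was -0.31 with size factors, -0.59 with 10 counts and -1.12 to 1.17 with each library left out. Of the genes not called, some changed sign. With 10 counts in every library Liprin-alpha was at -0.08, Obp44a at -0.47, Prosbeta4 at -0.78 and nrv2 at -0.37. With size factors or the Wald test Obp44a was at -0.33, Ppr-Y at -0.23, Prosbeta4 at -0.64 and nrv2 at -0.22. With the 4 libraries alone these were at -0.16, -0.09, -0.47 and -0.06. With upper-quartile scaling Obp44a was at -0.05 and Prosbeta4 at -0.37. Among genes overlapping no other, DAT was at 0.17 and NLaz at 0.04. Each library left out in turn gave -0.22 to 0.07 for DAT, -0.52 to 0.02 for NLaz, -3.31 to 0.05 for ORY, -2.13 to 1.25 for Ppr-Y, -0.23 to 0.32 for Prosbeta4 and -0.19 to 0.08 for bru2. With the replicate block 4805 genes were called higher and 4049 lower, and Ppr-Y was at -0.52. The block added calls for kl-5 and CCAP (lower) and simj (higher), and tut then passed the sex difference (adjusted p = 0.0222, edgeR). Deviations of same-numbered libraries correlated at 0.28 between male heads and testes and at 0.28 to 0.67 over 15 pairs of groups, a hint from the data and not from the design, with 2 replicate numbers only. Group sizes of 2 limit all tests, and genes at a few counts in 1 tissue have fold changes set by those counts.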
